A study of Mus musculus with 8 samples.

Results

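Wnt modulators and targets were described as 10 genes chosen by name, with earlier results of these data known: Rspo2, Wnt5a, Sfrp1, Sfrp2, Sfrp4, Dkk3, Kremen1, Notum, Nkd2 and Axin2. All 10 were present in each of the 8 deposited tables, among 23503 genes in all. Each gene was found through its RefSeq transcripts, and its abundance was summed in FPKM, which is fragments per kilobase of a transcript relative to all fragments mapped in the library. Wnt5a had 2 transcripts and each of the others had 1.

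Wnt ligands are lipid-modified secreted proteins that bind Frizzled receptors, and together with the co-receptors Lrp5 and Lrp6 they keep β-catenin from being degraded, so that it can act with TCF and LEF proteins on target genes. The pathway is controlled at the cell surface by agonists such as the R-spondins, which keep Frizzled receptors on the membrane, and by secreted antagonists such as the Sfrp proteins, which bind Wnts. It is also restrained by its own targets, among them Axin2. In bone and cartilage it is known for its part in the choice between osteoblast and chondrocyte fates.

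RNA came from mouse bone marrow-derived stem cells with a p53 knockout, kept as 4 clonal lines (clones 2, 4, 8 and 12). In the cFos arm a clone carried a retrovirus with a cFos cDNA, the transcription factor that forms AP-1 with Jun proteins. In the Luc arm the same clone carried a retrovirus with luciferase, a reporter enzyme. All 8 cultures carried the p53 knockout and received no other treatment, and each clone gave 1 library per arm. The labels do not say whether transductions were repeated, so n = 4 means 4 clones, and p-values measure the spread between these libraries. In bulk RNA, fewer cells that express a gene and less RNA per cell cannot be told apart.

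Coverage times transcript length came to 6.93 to 9.14 gigabases per library. Fos, the endogenous gene to which reads of a mouse cDNA would also map, was at 588.7, 674.6, 1019 and 505.3 FPKM in cFos clones 2, 4, 8 and 12, against 76.2, 41.1, 301.7 and 43.5 FPKM in the Luc cultures of the same clones. Clone 8 had the highest Fos value of each arm and, at 3.38-fold, the smallest ratio between its arms. Trp53 lay between 6.32 and 6.85 FPKM in cFos cultures and between 6.17 and 9.28 FPKM in Luc cultures, and the labels do not name the deleted part of the gene. Of 10 stromal markers, 9 averaged at least 1 FPKM, and their sum was 896 to 1408 FPKM in cFos cultures and 1812 to 7946 FPKM in Luc cultures. Cxcl12 made up most of the sum in Luc cultures and fell (adjusted p = 0.0154), while Pdgfrb rose (adjusted p = 0.0442), and the part of this difference in the Wnt results was not tested. Thy1, Nt5e and Eng, which are often used to define such cells, were under 1 FPKM in 2 or more clones of each arm. Blood markers summed to 1.39 to 3.02 FPKM in cFos cultures and 1.42 to 13.4 FPKM in Luc cultures (2 of 7 averaged at least 1 FPKM), with Ptprc at most 0.0718 FPKM. Endothelial markers summed to at most 0.391 FPKM in any library, with Cdh5 at 0 throughout, and epithelial markers to 0.0687 to 2.68 FPKM in cFos cultures and 0.124 to 1.41 FPKM in Luc cultures.

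cFos cultures had more Notum and Kremen1 RNA and less Rspo2 and Nkd2 RNA than Luc cultures. Notum, an extracellular enzyme that removes the lipid from Wnt ligands, averaged 6.42 ± 4.02 FPKM in cFos cultures and 0.217 ± 0.141 FPKM in Luc cultures (SD, n = 4 clones each). Rspo2, a secreted amplifier of Wnt signalling, averaged 10.7 ± 5.46 FPKM in cFos cultures and 88.3 ± 60.7 FPKM in Luc cultures (SD, n = 4 each). Sfrp2 was the most abundant of the 10 genes in all 8 libraries and did not pass the test.

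The arms were compared with limma on log2(FPKM + 0.5) across the 11162 genes that reached 1 FPKM in at least 4 libraries. Of the 9 genes that passed this filter, 2 rose (2.92% of all tested genes rose) and 2 fell (2.62% of all tested genes fell), and 5 did not pass the test. Notum passed the filter through the cFos arm alone and Nkd2 through the Luc arm alone, so their entry into the test already required a difference. The genes were also chosen with earlier results of these data known. The counts, shares and medians of this paragraph are therefore given as a description and do not test the set against all genes. Axin2 did not reach the filter. All 4 cFos values lay above all 4 Luc values for Notum and Kremen1 (5.86% of tested genes), and all 4 lay below for Rspo2, Nkd2 and Sfrp1 (7.8% of tested genes). The direction was the same in the 4 clones for 6 of the 9 genes, against 36.2% of tested genes. The median log2 fold change was -0.36 over the 9 genes and -0.06 over all genes tested.

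**Figure D1:**
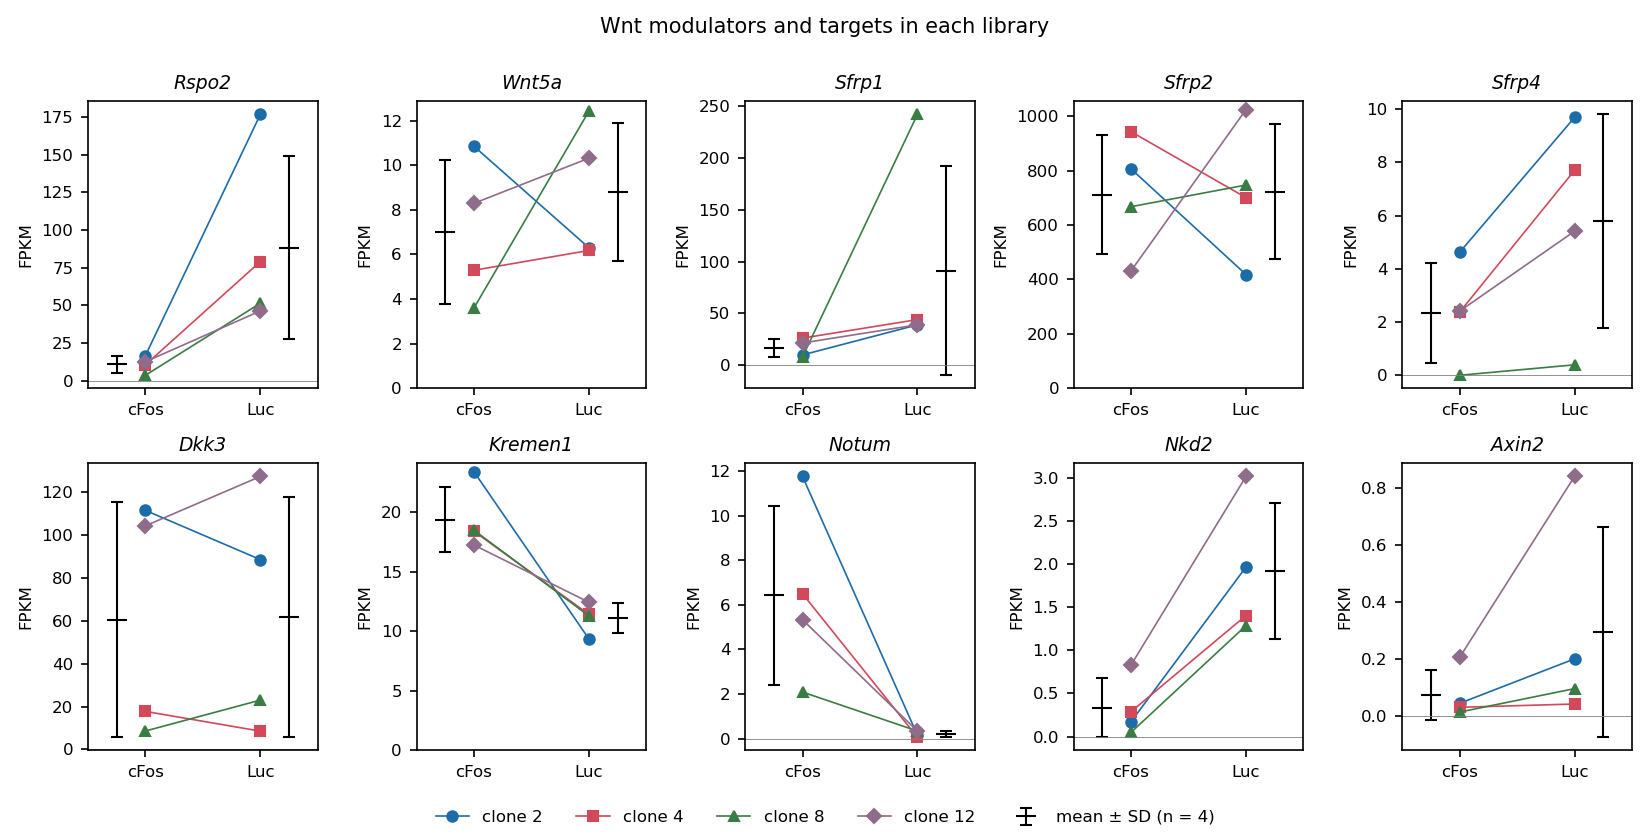
FPKM (linear axis, 1 panel per gene) of the 10 genes in the cFos and Luc cultures, with a symbol and colour for each clone, a line joining the arms of a clone, and bars for the mean ± SD of 4 clones. The lines of Notum and Kremen1 run higher at cFos in all 4 clones, those of Rspo2, Nkd2, Sfrp1, Sfrp4 and Axin2 run lower, and those of Sfrp2, Wnt5a and Dkk3 cross.

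Among the agonists and ligands, Rspo2 changed and Wnt5a did not pass the test. Rspo2 (mm9 chr15:42852341-43002364, transcript of 3340 bases) had 16.6, 10.4, 3.50 and 12.5 FPKM in cFos clones 2, 4, 8 and 12, against 176.7, 79.0, 51.3 and 46.2 FPKM in the Luc cultures of these clones. The highest cFos value was below the lowest Luc value. The ratios of Luc to cFos were 10.7, 7.57, 14.7 and 3.70 in these clones. Rspo2 thus fell in 4 of 4 clones, with a log2 fold change of -2.95 (SE 0.52, adjusted p = 0.0148 by limma). Exact permutation of the 8 libraries (70 arrangements, two-sided) gave p = 0.0286, and exchange of the arms within clones (16 exchanges, exact) gave p = 0.125. Each is the smallest p the design allows. Ranked by level among the 10 genes, Rspo2 held rank 4, 5, 6 and 5 in cFos clones 2, 4, 8 and 12, against rank 2, 2, 3 and 3 in Luc.

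Wnt5a (mm9 chr14, transcripts at 29318659-29338701 and 29324591-29338701) encodes a ligand known mainly for β-catenin-independent signalling through receptors such as Ror2. It had 10.9, 5.29, 3.60 and 8.29 FPKM in cFos clones 2, 4, 8 and 12, against 6.30, 6.18, 12.4 and 10.3 FPKM in the Luc cultures. The arms overlapped, with clone 2 higher in cFos and clones 4, 8 and 12 lower. Its log2 fold change of -0.36 had an SE of 0.34 (limma adjusted p = 0.620). The longer transcript (4354 bases) held 22.0%, 40.1%, 35.1% and 18.03% of the summed Wnt5a FPKM in cFos clones 2, 4, 8 and 12, against 28.0%, 46.0%, 34.2% and 35.4% in Luc. The shorter transcript (3731 bases) therefore had the larger share in every library, as far as the Cufflinks model could assign reads to overlapping transcripts.

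The Sfrp proteins carry a Frizzled-like domain through which they bind Wnts outside the cell. Sfrp2 (mm9 chr3:83570243-83578236, 2001 bases) had 806, 943, 667 and 431 FPKM in cFos clones 2, 4, 8 and 12, against 418, 700, 747 and 1024 FPKM in Luc. The means were 712 ± 218 FPKM in cFos and 722 ± 248 FPKM in Luc (SD, n = 4 each), and the log2 fold change of -0.01 (SE 0.31, adjusted p = 0.992 by limma) turned to 0.040 when libraries were scaled to equal medians. Clones 2 and 4 were higher in cFos and clones 8 and 12 lower. The same clone gave the lowest Sfrp2 value in the cFos arm and the highest in the Luc arm, namely clone 12.

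Sfrp1 (mm9 chr8:24521974-24560104, 4372 bases) had 9.77, 26.0, 7.92 and 21.3 FPKM in cFos clones 2, 4, 8 and 12, against 38.8, 43.9, 242 and 38.9 FPKM in Luc. The arms did not overlap, and the Luc culture of clone 8 stood far above the other Luc cultures. The Luc value was 30.6-fold the cFos value in clone 8 and 1.69- to 3.97-fold in clones 2, 4 and 12. With this spread the log2 fold change of -2.10 (SE 0.62) did not pass the limma test (adjusted p = 0.0936). The exact permutation test of the 8 libraries gave p = 0.0286, and exact exchange of the arms within clones gave p = 0.125. Both are the smallest the design allows. No left-out library brought the adjusted p under the threshold (0.0756 to 0.237), and without the Luc culture of clone 8 the log2 fold change was -1.45.

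Sfrp4 (mm9 chr13:19715044-19724692, 1758 bases) had 4.62, 2.37 and 2.41 FPKM in cFos clones 2, 4 and 12 and was listed at 0 in cFos clone 8, against 9.69, 7.70, 0.392 and 5.41 FPKM in Luc clones 2, 4, 8 and 12. Clone 8 was the lowest of both arms, and every clone was lower in cFos, by 0.84 to 1.51 on the log2(FPKM + 0.5) scale. The 4 clones differed more from each other than the arms did, and the log2 fold change of -1.09 (SE 0.89) did not pass (limma adjusted p = 0.551). With the clone as a replicate block the same difference had an SE of 0.17 and an adjusted p of 0.0151, which added Sfrp4 to the genes that fell. In clone 8, at 0 and 0.392 FPKM, the size of the difference depends largely on the 0.5 added to each value. Without the block the log2 fold change was -1.54 with 0.1 added and -0.92 with 1 added. The fit with the block was not run with these pseudocounts. In the fit with the block 4.28% of tested genes fell and 4.51% rose, and the calls of Notum, Kremen1, Rspo2 and Nkd2 held. Entry of Notum and Nkd2 into the test already required arms that do not overlap, so for them this is a description.

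Summed over Sfrp1, Sfrp2 and Sfrp4, the level was 820, 971, 675 and 455 FPKM in cFos clones 2, 4, 8 and 12, against 466, 752, 989 and 1068 FPKM in Luc. The order of the clones in this sum differed between the arms, as it did for Sfrp2, which made up 94.8% to 98.8% of the sum in cFos and 75.5% to 95.9% in Luc. Sfrp1 supplied 24.5% of the sum in the Luc culture of clone 8 and at most 8.33% in any other library.

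Dkk3 (mm9 chr7:119259533-119302571, 3357 bases) is a divergent member of the Dickkopf family of secreted proteins. It had 111.5, 17.7, 8.59 and 104.3 FPKM in cFos clones 2, 4, 8 and 12, against 88.5, 8.53, 23.0 and 127.3 FPKM in Luc. Clones 2 and 12 were high in both arms and clones 4 and 8 low in both, with a 13.0-fold span among cFos cultures and a 14.9-fold span among Luc cultures. The arms differed by -0.08 on the log2 scale (SE 1.04, limma adjusted p = 0.979), up in clones 2 and 4 and down in clones 8 and 12.

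Kremen1 (mm9 chr11:5091556-5161613, 4907 bases) encodes a membrane receptor for Dickkopf proteins that, with them, takes Lrp6 off the cell surface. It had 23.4, 18.4, 18.5 and 17.2 FPKM in cFos clones 2, 4, 8 and 12, against 9.35, 11.4, 11.3 and 12.4 FPKM in Luc. Every cFos value was above every Luc value, and values within an arm differed by at most 1.36-fold. The ratios of cFos to Luc were 2.50, 1.61, 1.64 and 1.39 in these clones. Kremen1 rose by 0.77 on the log2 scale (SE 0.14, adjusted p = 0.0165 by limma), and the call was lost without the cFos culture of clone 2 (adjusted p = 0.0550). Dkk1, which encodes a ligand of Kremen1, was at most 0.0455 FPKM in any library. Dkk2, another Dickkopf gene, had 0.147, 1.01, 0.0371 and 0.0488 FPKM in cFos clones 2, 4, 8 and 12, against 1.05, 6.44, 11.5 and 0.116 FPKM in Luc.

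Notum (mm9 chr11:120515103-120522151, 2019 bases) had 11.8, 6.50, 2.09 and 5.34 FPKM in cFos clones 2, 4, 8 and 12, against 0.148, 0.0516, 0.336 and 0.334 FPKM in Luc. The lowest cFos culture, clone 8, was 6.20-fold its own Luc culture. Ratios in clones 2, 4 and 12 were 79.8, 126 and 15.99, over Luc cultures in which the mean depth on the transcript was 0.529 to 2.57 reads per base. The deposited confidence limits of the Luc culture of clone 4 were 0 and 0.103 FPKM, so that its ratio is loosely set. Notum rose in 4 of 4 clones, by 3.09 on the log2 scale (SE 0.42, adjusted p = 0.00470 by limma). The adjusted p stayed between 0.00177 and 0.0200 with any 1 library left out. Exact permutation of the libraries gave p = 0.0286, and exact exchange of the arms within clones gave p = 0.125. Both are the smallest the design allows. Notum entered the test through its cFos values alone, which required arms that do not overlap. Its p-values are therefore given as a description. By level among the 10 genes, Notum held rank 5, 6, 7 and 7 in cFos clones 2, 4, 8 and 12, against rank 10, 9, 9 and 10 in Luc.

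**Figure D2:**
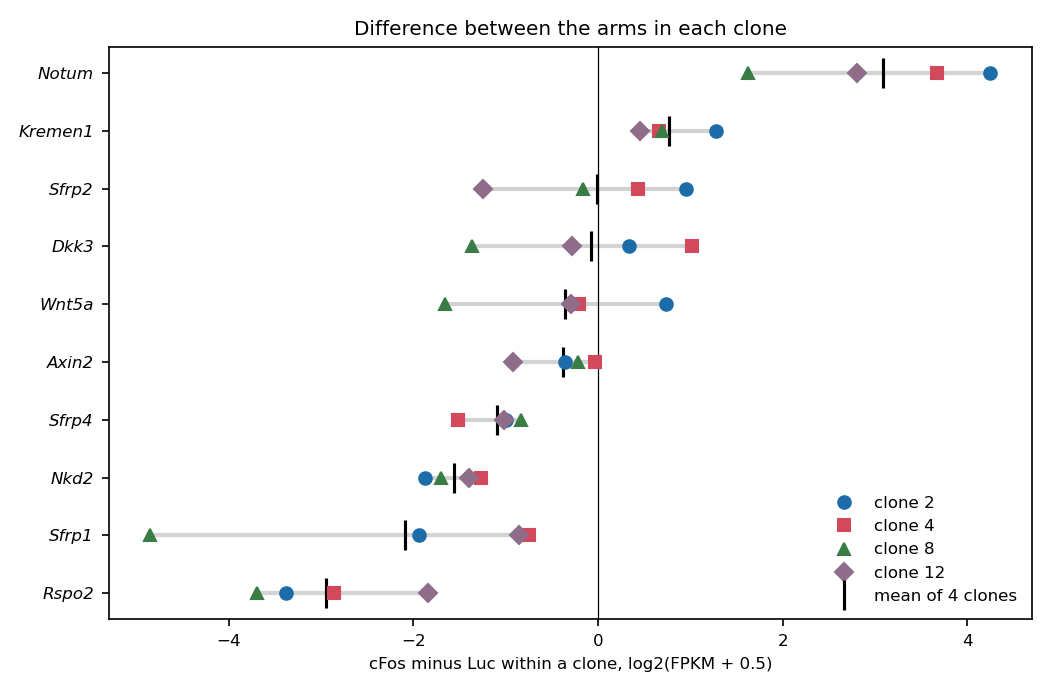
Difference between the cFos and the Luc culture of each clone in log2(FPKM + 0.5) for the 10 genes, with 1 symbol per clone, a grey line over their range and a black bar at the mean of 4 clones. Notum and Kremen1 lie above 0 in all 4 clones, Rspo2, Sfrp1, Nkd2, Sfrp4 and Axin2 lie below 0 in all 4, and Sfrp2, Dkk3 and Wnt5a span 0.

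Nkd2 and Axin2 act inside the cell, where Nkd2 binds Dishevelled and Axin2 is a scaffold of the complex that marks β-catenin for degradation. Both are shown with the 300 bases around their starts (250 before to 50 after, gene strand, 5′ to 3′, RefSeq, GRCm38.p6), because they are the intracellular feedback genes of the set and both were lower in cFos in 4 of 4 clones. Capitals mark CG dinucleotides. The Nkd2 window is chr13:73847582-73847881 on the minus strand, and the Axin2 window is chr11:108920099-108920398 on the plus strand.
Nkd2: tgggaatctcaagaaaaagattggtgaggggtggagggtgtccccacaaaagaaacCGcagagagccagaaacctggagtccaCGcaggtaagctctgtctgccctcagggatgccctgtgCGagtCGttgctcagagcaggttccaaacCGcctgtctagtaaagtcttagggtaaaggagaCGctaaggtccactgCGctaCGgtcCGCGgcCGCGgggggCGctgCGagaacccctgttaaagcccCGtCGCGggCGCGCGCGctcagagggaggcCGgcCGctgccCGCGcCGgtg
Axin2: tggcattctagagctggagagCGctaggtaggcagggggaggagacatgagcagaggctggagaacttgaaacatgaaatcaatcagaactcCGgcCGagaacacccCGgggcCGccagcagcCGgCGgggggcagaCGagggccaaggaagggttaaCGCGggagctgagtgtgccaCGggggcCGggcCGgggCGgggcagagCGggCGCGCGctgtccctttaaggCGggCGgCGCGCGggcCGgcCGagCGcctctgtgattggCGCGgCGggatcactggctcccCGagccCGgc
The Nkd2 window holds 26 CG dinucleotides (63.0% G or C) and the Axin2 window 31 (70% G or C), against medians of 7 and 52.7% over 32851 RefSeq promoters of the same length. Sfrp2 was the only other of the 10 genes with an entry in the table used here, with 22 CG dinucleotides (66.0% G or C). The AP-1 letters TGANTCA, searched on both strands, occur in 7.81% of all these promoters and in none of the 3 windows. The TCF/LEF letters CTTTGAT or CTTTGAA occur in 8.65% of all promoters on either strand and in none of the 3. The motifs can overlap through their shared letters TGA, and a window without them says nothing of binding elsewhere.

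Nkd2 (mm9 chr13:73956776-73985079, 3222 bases) had 0.173, 0.289, 0.050 and 0.831 FPKM in cFos clones 2, 4, 8 and 12, against 1.97, 1.40, 1.29 and 3.01 FPKM in Luc. The arms did not overlap, which entry into the test through the Luc values alone required, so its p-values are given as a description. Clone 12 was the highest and clone 8 the lowest of both arms. The ratios of Luc to cFos were 11.3, 4.85, 25.7 and 3.63, over cFos cultures in which the mean depth was 0.528 to 6.11 reads per base. The deposited confidence limits of the cFos culture of clone 8 were 0.00918 and 0.0908 FPKM, so that its ratio is loosely set. Nkd2 fell in 4 of 4 clones, with a log2 fold change of -1.56 (SE 0.34, adjusted p = 0.0313 by limma). This call was lost without a filter on low values (adjusted p = 0.0557) and in 6 of 8 fits with 1 library left out, namely without cFos clone 2, 4 or 8 or Luc clone 2, 4 or 12 (adjusted p up to 0.0990).

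Axin2 (mm9 chr11:108781663-108812095, 4258 bases) was under 1 FPKM in every library. It had 0.0431, 0.0291, 0.0124 and 0.204 FPKM in cFos clones 2, 4, 8 and 12, against 0.199, 0.0407, 0.0946 and 0.839 FPKM in Luc. Clone 12 was the highest of both arms, and each clone was lower in cFos, while the arms overlapped. The deposited confidence limits of the arms were apart in clones 2, 8 and 12 and overlapped in clone 4. The mean log2 difference was -0.38. Exact permutation of the libraries gave a two-sided p of 0.257, and exact exchange within clones gave 0.125, the smallest that 4 pairs allow. Mean depth on the transcript was 0.099 to 1.31 reads per base in cFos and 0.317 to 6.29 in Luc.

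FPKM is scaled to transcript length, so levels can be ranked between genes. By mean level in cFos cultures the order was Sfrp2, Dkk3, Kremen1, Sfrp1, Rspo2, Wnt5a, Notum, Sfrp4, Nkd2 and Axin2. In Luc cultures it was Sfrp2, Sfrp1, Rspo2, Dkk3, Kremen1, Wnt5a, Sfrp4, Nkd2, Axin2 and Notum. The place of Sfrp1 after Sfrp2 in that order rests on the Luc culture of clone 8. By median the Luc level of Sfrp1 was 41.4 FPKM, below Rspo2 at 65.2 FPKM and Dkk3 at 55.8 FPKM. Within Luc clones 2, 4, 8 and 12 Sfrp1 held rank 4, 3, 2 and 4. Sfrp2 lay above every value of the other genes in its arm, whereas the ranges of Kremen1 and Sfrp1 overlapped among cFos cultures, as did those of Sfrp1 and Rspo2 among Luc cultures.

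The clones were compared with limma's F test in a model of arm and clone, which called 54 genes (0.484% of all tested). Sfrp4 was called among the 9 genes tested (F = 79.7, adjusted p = 0.0314), with clone 8 far below clones 2, 4 and 12 in both arms. That call was lost without a filter and without any 1 of the 6 libraries of clones 2, 4 and 12 (adjusted p up to 0.138). Dkk3, which was high in clones 2 and 12, did not pass with all libraries (F = 22.9, adjusted p = 0.0702) and passed without cFos clone 8 (0.0363) or Luc clone 8 (0.0327). For Rspo2 the clone term had an adjusted p of 0.219, for Nkd2 0.268 and for Notum 0.701. Kremen1 had the highest p of the 9 genes (adjusted p = 0.999). Clone 8, which had the smallest log2 difference in Fos between its arms, 1.75, also had the smallest difference in Notum, 1.63, but the largest differences in Rspo2 (-3.70) and Sfrp1 (-4.85). These are single pairs of libraries, and no relation between the clones' values was tested.

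The 10 genes were set beside a list of 90 Wnt pathway genes by role, which holds them too. It was also drawn up with earlier results of these data known, so its counts are a description. Of its 52 tested genes, 3 rose, 4 fell and 45 did not pass, against 2.92% of all tested genes that rose and 2.62% that fell. The median log2 fold change was -0.23, against -0.06 over all genes tested. With the clone as a replicate block 4 rose and 8 fell, against 4.51% and 4.28% of all tested genes. Without the 10 genes, 43 were tested, of which Apcdd1 rose, Porcn and Fzd5 fell and 40 did not pass, with a median of -0.21, and these counts are near the shares over all genes. The arms did not overlap for 7 of these 43, against 5.86% of all tested genes with cFos above Luc and 7.8% with cFos below. The direction was the same in all 4 clones for 23 of them, against 36.2% of all tested genes. The 3 genes that rose belong to the extracellular inhibitors and their receptors, of which 8 of 16 were tested. The role as a whole did not rise, since 5 of the 8 were lower in cFos and their median was -0.04. Dkk2, Frzb and Wif1, further secreted inhibitors named here after their values were seen, were lower in cFos in all 4 clones and were not called. Dkk2 differed by -2.03 on the log2 scale (limma adjusted p = 0.235), and Frzb (-2.21, adjusted p = 0.0948) and Wif1 (-1.22, adjusted p = 0.464) entered the fit without a filter only. Among 19 tested transducers no gene was called without the block, and 1 rose and 2 fell with it. The 2 tested Wnt ligands were not called in either fit, and 13 of the 19 listed ligands were under 1 FPKM in all libraries.

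**Figure D3:**
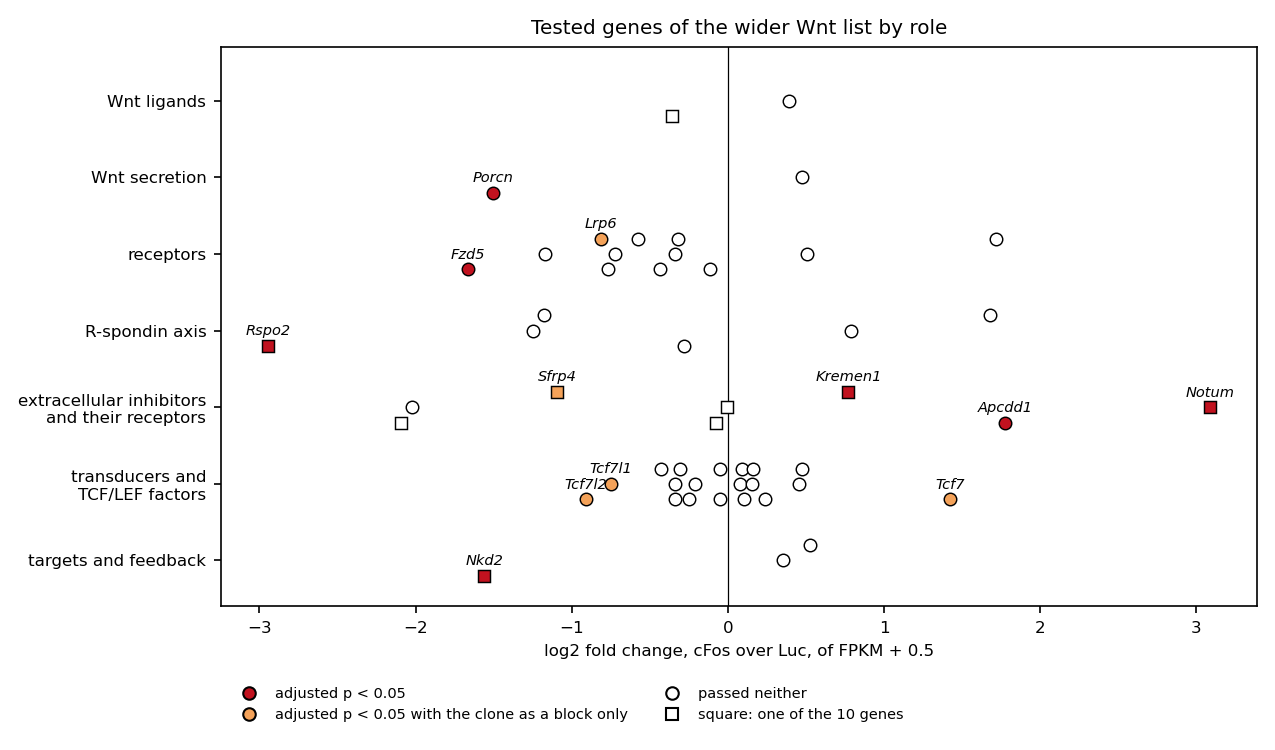
Log2 fold change of FPKM + 0.5, cFos over Luc, of the 52 tested Wnt pathway genes in rows by role. Squares are genes of the set of 10, red fill marks adjusted p under 0.05, and orange marks genes that passed with the clone as a block only. Notum and Rspo2 lie at the ends of the axis, at 3.09 and -2.95, and most transducers lie near 0.

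Apcdd1, a membrane protein that inhibits Wnt signalling by binding ligand and co-receptor, had 17.4, 9.18, 13.4 and 3.62 FPKM in cFos clones 2, 4, 8 and 12, against 2.64, 2.23, 1.86 and 3.05 FPKM in Luc. Clone 12 showed little of the difference, and the call (log2 fold change 1.78, limma adjusted p = 0.0386) was lost in 7 of 8 fits with 1 library left out, all but the one without cFos clone 12 (adjusted p up to 0.103). Porcn, the acyltransferase that attaches the lipid to Wnt ligands, had 1.77, 1.81, 1.21 and 3.20 FPKM in cFos, against 5.98, 3.73, 6.84 and 10.1 FPKM in Luc. Its log2 fold change of -1.51 (limma adjusted p = 0.0280) lost the call without cFos clone 2, 4 or 8 or Luc clone 2, 8 or 12 (adjusted p up to 0.0890). Fzd5, a Frizzled receptor, had 1.99, 2.02, 1.83 and 2.78 FPKM in cFos, against 10.01, 3.95, 12.8 and 7.35 FPKM in Luc. Fzd5 fell by 1.66 on the log2 scale (limma adjusted p = 0.0183), and the call was lost without cFos clone 2, 4 or 8 or Luc clone 2 (adjusted p up to 0.0648). These 3 genes did not overlap between the arms, and each lost its call without the filter on low values.

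Of 12 tested receptors 10 were lower in cFos, against 58.3% of all tested genes, and Fzd5 alone passed. Fzd6, a Frizzled receptor named after its values were seen, went the other way. It had 4.27, 5.05, 3.88 and 2.88 FPKM in cFos clones 2, 4, 8 and 12, against 0.192, 1.62, 0.297 and 2.38 FPKM in Luc. The arms of Fzd6 did not overlap, and its log2 fold change of 1.71 did not pass (limma adjusted p = 0.0664). Lrp6, a Wnt co-receptor, averaged 18.4 ± 3.65 FPKM in cFos and 33.3 ± 10.6 FPKM in Luc (SD, n = 4 each), with no overlap. It did not pass (log2 fold change -0.81, limma adjusted p = 0.0814) except with the clone as a block (adjusted p = 0.0231). Lrp5 averaged 11.2 ± 1.36 FPKM in cFos and 14.2 ± 2.06 FPKM in Luc (SD, n = 4 each; limma adjusted p = 0.236). Lgr4, an R-spondin receptor, had 18.9, 14.01, 54.3 and 11.4 FPKM in cFos clones 2, 4, 8 and 12, against 13.5, 13.2, 11.8 and 8.40 FPKM in Luc, and was highest in the cFos culture of clone 8 (limma adjusted p = 0.348). Ror2, a receptor for Wnt5a, had 3.78, 1.15, 0.241 and 4.04 FPKM in cFos, against 9.41, 1.40, 0.869 and 7.29 FPKM in Luc. Ror2 differed between clones (F = 42.8, adjusted p = 0.0375), with clones 2 and 12 high as for Dkk3, but lost that call without a filter and in all 8 fits with 1 library left out (adjusted p up to 0.162).

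Among the transducers, the log2 differences of the 4 TCF and LEF genes varied in sign. Ctnnb1, which encodes β-catenin, averaged 235 ± 31.1 FPKM in cFos and 218 ± 24.5 FPKM in Luc (SD, n = 4 each; limma adjusted p = 0.736). Tcf7 had 5.96, 2.45, 2.30 and 10.9 FPKM in cFos clones 2, 4, 8 and 12, against 1.78, 0.766, 0.593 and 3.25 FPKM in Luc. It was higher in cFos in each clone, yet the clones differed so much that the arms overlapped. Its log2 fold change of 1.42 passed with the clone as a block (adjusted p = 0.00544) and not without it (limma adjusted p = 0.177). Tcf7 was also called between clones (F = 34.9, adjusted p = 0.0495), a call that was lost in 11 of 12 other settings. Tcf7l2 averaged 6.02 ± 1.65 FPKM in cFos and 12.4 ± 6.05 FPKM in Luc (SD, n = 4 each; log2 fold change -0.91, limma adjusted p = 0.121, with the block 0.0206). Tcf7l1 averaged 16.4 ± 4.85 FPKM in cFos and 28.9 ± 11.9 FPKM in Luc (SD, n = 4 each; log2 fold change -0.75, limma adjusted p = 0.218, with the block 0.0371). Lef1 had 0.344, 0.179, 0.0119 and 0.870 FPKM in cFos clones 2, 4, 8 and 12, against 3.29, 1.96, 0.860 and 1.54 FPKM in Luc. It was lower in cFos in each clone but stayed under the filter, and a fit without the filter did not call it (log2 fold change -1.50, limma adjusted p = 0.102).

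**Figure D4:**
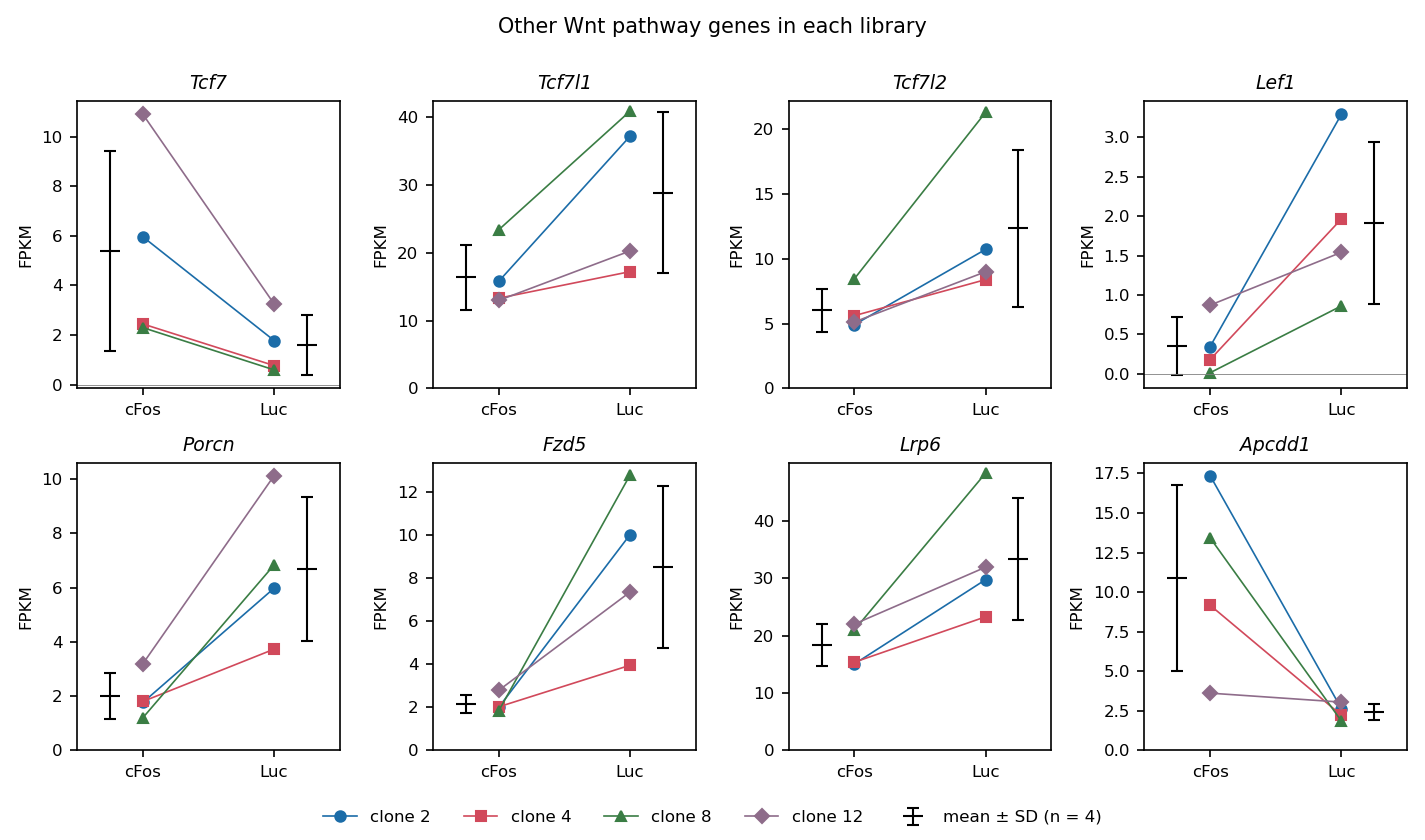
FPKM (linear axis, 1 panel per gene) of 8 further Wnt pathway genes in the cFos and Luc cultures, with a symbol and colour per clone, a line joining the arms of a clone, and bars for the mean ± SD of 4 clones. Tcf7 and Apcdd1 are higher in cFos in all 4 clones, and Tcf7l1, Tcf7l2, Lef1, Porcn, Fzd5 and Lrp6 are lower in all 4.

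Of 7 listed targets and feedback genes, 3 were tested and Nkd2 alone passed, as a fall (2.62% of all tested genes fell). Nkd2 entered the test through its Luc values alone. The median log2 fold change of the 3 was 0.36, with 2 of them higher in cFos. Nkd1, the paralogue of Nkd2, had 0.0690, 0.0788, 0.104 and 0.479 FPKM in cFos clones 2, 4, 8 and 12, against 2.01, 0.363, 1.79 and 1.84 FPKM in Luc. It was lower in each clone and stayed under the filter, and the fit without the filter did not call it (log2 fold change -1.47, limma adjusted p = 0.0937). Ccnd1, which encodes cyclin D1, averaged 68.2 ± 27.9 FPKM in cFos and 45.1 ± 8.46 FPKM in Luc (SD, n = 4 each), lower in cFos in clone 12 alone (limma adjusted p = 0.320). Myc averaged 38.8 ± 12.1 FPKM in cFos and 29.9 ± 8.66 FPKM in Luc (SD, n = 4 each). It was higher in cFos in 4 of 4 clones and did not pass (log2 fold change 0.36, limma adjusted p = 0.549).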

How the data were processed

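RNA was sequenced from 8 cultures, 4 clones with a cFos and a Luc retrovirus each. Libraries were Illumina TruSeq of polyadenylated RNA, per the labels' protocols. The submitters' processing notes name CASAVA 1.8.2, TopHat, Cufflinks and build mm9, with no version for TopHat or Cufflinks. Per the file headers, the deposited tables are Cufflinks tracking tables with 1 entry per RefSeq transcript, holding FPKM with its confidence limits, the coverage (mean depth per base, a signal with no normalization) and the transcript length. Because Cufflinks assigns shared reads by a model, overlapping or near-identical transcripts can exchange them.

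The 30769 entries were named from an NCBI RefSeq table (30227) or from GENCODE M21 metadata (180), and 362 stayed unnamed (0.828% of FPKM). FPKM was summed by symbol into 23503 genes, and 3 with a failed status were removed. Coordinates are those of the tables in mm9, counted from 1.

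Arms were compared with limma 3.58.1 (R 4.3.3) on log2(FPKM + 0.5) with eBayes and a trend of the variance on the mean. It ran on the 11162 genes that reached 1 FPKM in 4 or more libraries, two-sided, with Benjamini-Hochberg adjusted p under 0.05. Fold changes on this scale understate the change of low genes. Same-numbered libraries come from the same clone, and the correlation of their deviations from the arm means was 0.174, 0.593, 0.349 and 0.437 in clones 2, 4, 8 and 12, so a fit with the clone as a replicate block was run beside the main one, in which 478 genes fell and 503 rose. Other alternatives were pseudocounts of 0.1 and 1, no filter, a minimum of 5 FPKM, median scaling and each library left out. The genes named beyond the 10 are those called in the wider list plus a set fixed by name (Ctnnb1, Lef1, Tcf7, Tcf7l2, Lrp5, Lrp6, Lgr4, Dkk1, Nkd1 and Ccnd1). Tcf7l1 was added because its call differed with the block, and Fzd6, Dkk2, Frzb, Wif1 and Myc were added after their values were seen. The 10 genes and the lists were chosen with earlier results of these data known. Tables were read and plots drawn in Python 3.11.15 (pandas 2.3.3, numpy 2.4.6, matplotlib 3.10.9). Read counts were not used, so the only limits within a library are the confidence limits deposited with FPKM.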

Additional observations from a re-analysis of the deposited data

Results flagged for a closer look

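With 4 samples per arm, the gap between the farthest value and its nearest neighbour was set against the range of the arm. Chance flags about 1 in 20 groups by this measure, and 2 values were picked out. Sfrp1 was at 242 FPKM in the Luc culture of clone 8, with a gap of 0.975 of the range. The same library had the highest Fos value of the Luc arm. Axin2 was at 0.204 FPKM in the cFos culture of clone 12, with a gap of 0.84 of the range, and the Luc culture of clone 12 was also the highest of its arm.

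For 3 genes the log2(FPKM + 0.5) difference, cFos minus Luc, took opposite signs in different clones, which was not tested because each clone has 1 library per arm. In clones 2, 4, 8 and 12, Sfrp2 differed by 0.95, 0.43, -0.16 and -1.25. For Wnt5a the differences were 0.74, -0.21, -1.66 and -0.30. Dkk3 had differences of 0.33, 1.01, -1.37 and -0.29. The deposited confidence limits of the arms cover the estimate within a library and not the spread between cultures. They were apart in all 4 clones for Sfrp2 and Dkk3, but also for Kremen1, Notum, Sfrp4, Nkd2, Rspo2 and Sfrp1.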

How the results depend on the processing

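With the clone as a replicate block 981 genes were called between the arms, against 619 without it, and the set of 10 had 5 calls in place of 4. The block added calls for Sfrp4, Tcf7, Tcf7l1, Tcf7l2 and Lrp6 and kept those of Notum, Kremen1, Rspo2, Nkd2, Apcdd1, Porcn and Fzd5. For Notum and Nkd2, entry into the test already required arms that do not overlap. With each library left out in turn, 235 to 589 genes were called, and 2 to 4 of the 10. A minimum of 5 FPKM left 2 calls among the 10, Kremen1 and Rspo2, since Notum and Nkd2 were then not tested. Between clones, 54 genes were called, against 0 without a filter (2588 at unadjusted p under 0.05), 6 with a minimum of 5 FPKM and 0 to 115 with a library left out. Of the 10 genes 1 differed between clones, against 0 without a filter, 0 with a minimum of 5 FPKM and 0 to 2 with a library left out. That gene, Sfrp4, was not tested with a minimum of 5 FPKM. The fits with no clone calls were those without cFos clone 4, Luc clone 4 or Luc clone 12, where 1092, 933 and 1462 genes had an unadjusted p under 0.05. The log2 fold change of Sfrp2 changed sign with median scaling (0.040) and ranged from -0.25 to 0.21 with a library left out, and that of Dkk3 ranged from -0.79 to 0.60. Without a filter Nkd2, Porcn, Apcdd1 and Fzd5 lost their calls. Pseudocounts of 0.1 and 1 were run without the block, for the 10 genes and for Porcn, Apcdd1, Fzd5, Lrp6, Tcf7, Tcf7l1 and Tcf7l2. None of their calls between the arms changed in these fits. Sfrp4, Lrp6, Tcf7, Tcf7l1 and Tcf7l2 were called with the block only, and the fit with the block was not run with other pseudocounts. Low depth limits Axin2, Notum in Luc cultures and Nkd2 in cFos cultures. The causes of these changes were not tested.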
